A study of Mus musculus with 31 samples.

Results

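CD11b+ microglia of female APP/PS1 mice were compared with CD11b+ microglia of transgene-free female mice, all with wild-type PLCG2, across every expressed gene. The members were the 11 libraries of the female microglia count table whose column names carry the APdE9 tag alone (4 mice, written A+/Pwt/wt) or the WT tag (7 mice, A-/Pwt/wt), of 31 libraries in the series. A+ mice carry the APPswe/PS1dE9 transgene, which expresses mutant amyloid precursor protein among others from the prion protein promoter and leads to deposition of amyloid beta in the brain. A- mice carry no such transgene, and both groups have the wild-type Plcg2 gene (Pwt/wt) where other mice of the series are homozygous for the P522R knock-in (Pki/ki). All mice were 13 months old. Brains were perfused and dissociated whole, and cells carrying CD11b, the integrin chain encoded by Itgam, were held on magnetic beads, so the libraries average all brain regions and every CD11b+ cell type, and cells next to plaques are mixed with cells far from them.

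The genotype and a tag in the column names were the same split. All 4 A+/Pwt/wt libraries carried the tag b2 and all 7 A-/Pwt/wt libraries the tag b3, and the labels do not say what the tag stands for. Genotype and tag therefore cannot be told apart in any difference given here. The tag could not be entered as a term, and no tag held both groups. Another comparison of tags was possible between transgene-free females (b3, 7 libraries) and transgene-free males (b1, 3 libraries), which also differ in sex, and 9 of 17144 genes (0.0525%) passed the test there. These 9 included the sex-specific genes Xist, Kdm5d, Eif2s3y, Uty and Ddx3y. At an unadjusted p under 0.05 that comparison gave 4008 genes (23.4%), and the Wald test of DESeq2 called 1593.

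Microglia are the resident macrophages of the brain. In the resting state they express a homeostatic set of genes that includes the ADP receptor P2ry12, the fractalkine receptor Cx3cr1 and Tmem119. Around amyloid plaques they are known to adopt the disease-associated microglia (DAM) state, in which sensing through the receptor TREM2, its adaptor TYROBP and the phospholipase PLCG2 is followed by expression of genes for lysosomal digestion, lipid handling and growth factors. The DAM state is described in stages, an early one (stage 1) marked by genes such as Apoe and B2m and a later one (stage 2) marked by genes such as Itgax, Cst7 and Spp1.

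Libraries held about 18918300 to 23022500 counts in A+/Pwt/wt and 19547100 to 21635100 counts in A-/Pwt/wt. Mitochondrially encoded genes took 8.999 to 16.7% of counts in A+/Pwt/wt and 5.10 to 24.5% in A-/Pwt/wt, the highest in A- mouse 223. Summed oligodendrocyte marker levels ran from 24018 to 52287 CPM (counts scaled to a common library size by TMM) in A+/Pwt/wt and from 22524 to 74706 CPM in A-/Pwt/wt, so myelin RNA was abundant in both. In 7 library measures (total counts, genes detected, mitochondrial share, share of the 50 most counted genes, and neuron, astrocyte and oligodendrocyte marker sums) the groups differed with p from 0.333 to 1 in exact two-sided permutation tests over 330 arrangements of the libraries, whose smallest possible p is 0.00303. The first principal component (41.1% of the variance) placed A- mouse 223 at -77.4 and A- mouse 245 at 105, the ends of all 11 libraries. For the gene lists below, counts of called members that moved by over 1.5 times without A- mouse 223 are given with and without it.

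The transgene was checked through App and Prnp, endogenous gene names that parts of it share. App was at 1033, 673, 888 and 844 CPM in A+/Pwt/wt mice 331, 367, 375 and 380, against a lowest, median and highest level of 619, 666 and 962 CPM in A-/Pwt/wt. Prnp (162 to 376 against 46.7 to 241 CPM) also overlapped between the groups, and neither gene passed the test. In the temporo-occipital cortex of females, where neurons contribute, App was at 3350 to 3940 CPM in 4 A+/Pwt/wt libraries and 1923 CPM in the 1 A-/Pwt/wt library, and Prnp at 2612 to 3118 and 857 CPM. The microglia libraries thus did not separate the groups by these genes, while the A-/Pwt/wt cortex library lay below all 4 A+/Pwt/wt ones. The mouse number 236 stands on an A-/Pwt/wt microglia library and on an A+/Pwt/wt cortex library, and the labels do not say whether these are different animals. Microglial genes were high in both groups: Csf1r, the receptor for CSF1, was at 3320 to 5520 CPM in A+/Pwt/wt and 3448 to 6469 CPM in A-/Pwt/wt.

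Of 17355 genes tested with edgeR's quasi-likelihood test, 224 (1.29%) were called at an adjusted p under 0.05. In A+/Pwt/wt, 175 genes (1.01% of those tested) rose and 49 (0.282%) fell. The rises were also the larger changes, with a median log2 fold change of 1.56 against -0.91 for the falls and -0.03 for all genes tested, and 1755 genes (10.1%) had an unadjusted p under 0.05. Of the rises, 138 were at least 2-fold, 65 at least 4-fold and 41 at least 8-fold, whereas 23 falls were at least 2-fold and 1 at least 4-fold. In 150 of the rises every A+/Pwt/wt library was above every A-/Pwt/wt library, and in 43 of the falls every A+/Pwt/wt library was below, against 351 (2.02%) and 209 (1.2%) of all genes tested. Leaving out 1 library at a time moved the number of called genes between 91 (without A+ mouse 380) and 497 (without A- mouse 223), and 76 rises and 7 falls were called in every one of the 11 fits.

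**Figure D1:**
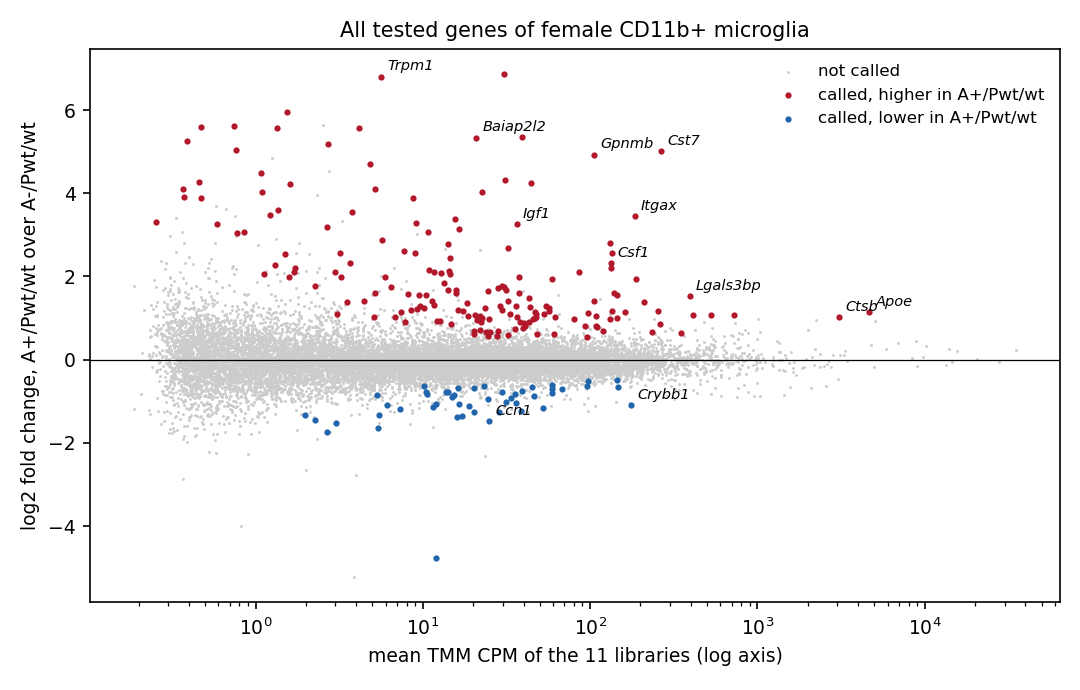
Log2 fold change of A+/Pwt/wt over A-/Pwt/wt microglia (vertical axis) against the mean TMM CPM of the 11 libraries (horizontal log axis). The 17355 genes tested are drawn once per symbol, as 17350 points. Red points are the called rises (175 in all), blue points the called falls (49 in all) and grey points the genes not called. The large changes lie above zero, with named rises up to a log2 fold change of 6.80 (Trpm1) and 41 rises at least 8-fold, against 1 fall of at least 4-fold.

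The 12 largest rises were taken from called genes averaging 5 or more CPM, with no overlap between the groups and no Gm, Rik or -ps symbol. They included the stage 2 genes Cst7, Gpnmb, Itgax and Igf1. Some rarer genes, such as Atp6v0d2 below, rose by more than some of these 12. In what follows the A+/Pwt/wt values are given in the order of mice 331, 367, 375 and 380, and the A-/Pwt/wt values as the lowest, median and highest of 7. Cst7 encodes cystatin F, an inhibitor of lysosomal cysteine proteases, and lies at chr2:150570415-150578944 on the plus strand (GRCm38). It was at 533, 792, 615 and 814 CPM in A+/Pwt/wt against 9.22, 23.8 and 31.1 CPM in A-/Pwt/wt. The groups were far apart, and the log2 fold change was 5.02 ± 0.30 (SE, n = 4 and 7; adjusted p = 2.84e-06). Baiap2l2, a member of a family of membrane-bending I-BAR domain proteins at chr15:79258195-79285537 on the minus strand, was at 38.8, 61.1, 41.7 and 77.3 CPM against 0.572, 1.505 and 1.83 CPM. No A-/Pwt/wt library came near the A+/Pwt/wt level, and this rise had the smallest adjusted p of all genes (log2 fold change 5.34 ± 0.27, adjusted p = 1.01e-06). Trpm1, a cation channel gene at chr7:64153835-64269775 best known from retina and melanocytes, was at 7.06, 20.2, 13.3 and 20.3 CPM against 0, 0.0860 and 0.366 CPM, with 2 A-/Pwt/wt libraries at 0. Its log2 fold change of 6.80 ± 0.59 (adjusted p = 8.05e-05) was the largest among the named genes, on very few A-/Pwt/wt counts.

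Integrin, glycoprotein and growth factor genes of the DAM program rose as well. Itgax encodes CD11c, the integrin chain that marks plaque-associated microglia. It was at 182, 510, 453 and 605 CPM in A+/Pwt/wt against 22.4, 35.8 and 61.1 CPM in A-/Pwt/wt, with mouse 331 the lowest of the A+ group yet above every A- library (log2 fold change 3.46 ± 0.33, adjusted p = 0.000179). Gpnmb, a transmembrane glycoprotein of lysosomes, was at 105, 111, 402 and 486 CPM against 3.93, 5.28 and 23.1 CPM. The A+/Pwt/wt mice formed a lower and a higher pair, and both pairs were above all A-/Pwt/wt mice (4.93 ± 0.58, adjusted p = 0.000839). Igf1, an insulin-like growth factor, was at 46.9, 81.6, 99.7 and 111 CPM against 5.85, 8.18 and 11.4 CPM (3.27 ± 0.23, adjusted p = 1.52e-05). Csf1, a ligand of the CSF1 receptor on which microglia depend, was at 163, 274, 278 and 368 CPM against 41.4, 54.2 and 67.5 CPM (2.33 ± 0.20, adjusted p = 8.05e-05). In both genes the groups were separate, while the receptor gene Csf1r overlapped between them (-0.17 ± 0.22, adjusted p = 0.931). Spp1, which encodes the secreted matrix protein osteopontin, was at 139, 213, 442 and 359 CPM against 12.8, 38.8 and 68.2 CPM (2.81 ± 0.38, adjusted p = 0.00232).

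Clec7a and Axl, receptors of the stage 2 list, were called, while its receptors Trem2 (log2 fold change 0.66 ± 0.21, adjusted p = 0.202) and Lilrb4a (1.66 ± 0.40, adjusted p = 0.0711) were not. Clec7a encodes the beta-glucan receptor dectin-1, and its level was 198, 378, 269 and 310 CPM in A+/Pwt/wt against 16.8, 50.2 and 66.2 CPM in A-/Pwt/wt (log2 fold change 2.58 ± 0.29, adjusted p = 0.000791). Axl, a receptor kinase for the removal of dying cells, was at 261, 439, 288 and 391 CPM against 94.7, 125 and 171 CPM (1.39 ± 0.19, adjusted p = 0.0024). Cd300lf, a lipid-binding inhibitory receptor of the Fc receptor and lectin list, was one of the 12 rises chosen by the rule above. It was at 85.8, 23.3, 98.4 and 238 CPM against 2.48, 5.32 and 10.6 CPM, a wide spread among the A+/Pwt/wt mice (4.25 ± 0.55, adjusted p = 0.00182). All 3 called receptors kept their call in each of the 11 fits without 1 library.

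**Figure D2:**
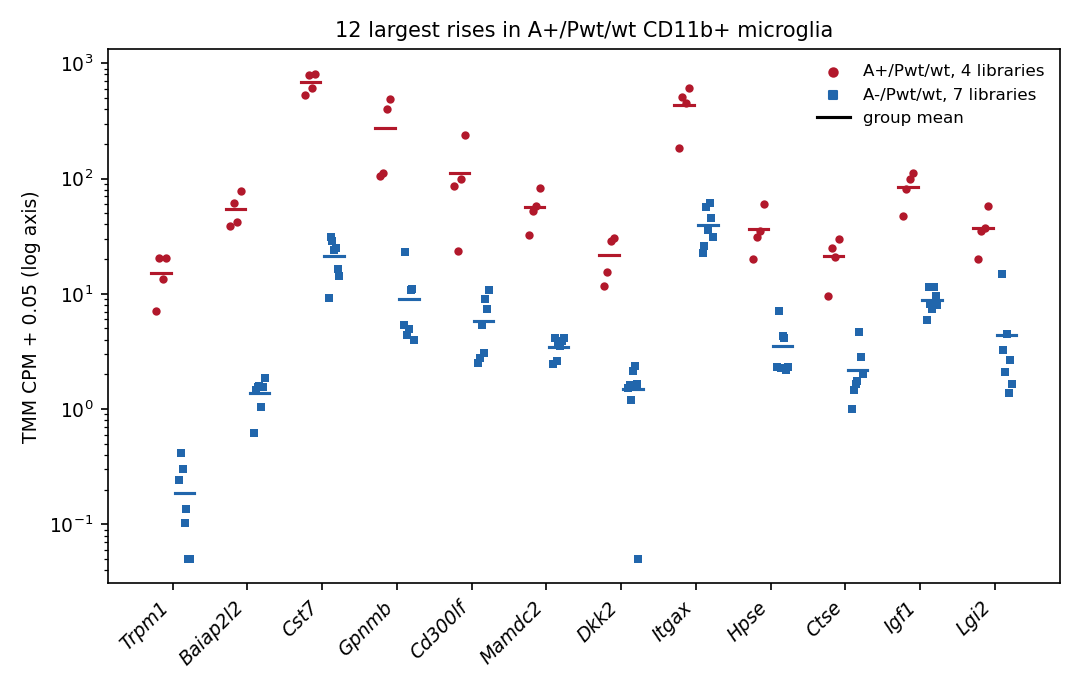
Level in every library of the 12 largest called rises averaging 5 or more CPM, without overlap and without a Gm, Rik or -ps symbol. The log axis shows TMM CPM plus 0.05, so that libraries at 0 are drawn. Red circles are the 4 A+/Pwt/wt libraries, blue squares the 7 A-/Pwt/wt libraries and bars the group means. All 4 red points lie above all 7 blue points in each gene, the closest being Lgi2, where the lowest A+/Pwt/wt library is at 19.8 CPM and A- mouse 223 at 14.9 CPM.

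Of the other genes in that plot, Mamdc2, which encodes a secreted MAM domain protein, was at 32.1, 52.7, 58.3 and 83.0 CPM against 2.42, 3.52 and 4.12 CPM (log2 fold change 4.04 ± 0.23, adjusted p = 2.56e-06). Dkk2, a secreted modulator of Wnt signalling, rose by 3.89 ± 0.56, Hpse, the heparan sulfate degrading enzyme heparanase, by 3.39 ± 0.36 and Ctse, the aspartic protease cathepsin E, by 3.29 ± 0.38 on the log2 scale (adjusted p = 0.00393, 0.000487 and 0.000839). Lgi2, a secreted protein better known from neurons, rose by 3.15 ± 0.57 (adjusted p = 0.0175), and its call was lost in 4 of the 11 fits without 1 library, with adjusted p up to 0.0877. Hif1a, the oxygen-regulated transcription factor, and Myo1e, an actin-based motor, had among the smallest adjusted p of abundant genes: Hif1a was at 168, 271, 259 and 299 CPM against 71.8, 85.0 and 93.6 CPM (1.55 ± 0.14, adjusted p = 0.000156), and Myo1e at 108, 200, 148 and 219 CPM against 32.9, 38.5 and 48.7 CPM (2.12 ± 0.18, adjusted p = 7.07e-05). Egln3, a prolyl hydroxylase that acts on HIF proteins, was at 15.2, 26.3, 26.3 and 30.3 CPM against 1.83, 2.65 and 4.00 CPM (3.06 ± 0.24, adjusted p = 4.19e-05). Hif1a and Egln3 were the 2 called members of the 28 genes of glycolysis and the HIF1 response, whose median log2 fold change was 0.22.

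As a whole, 18 of the 25 DAM stage 2 genes rose and none fell, beside the 1.01% of all genes that rose. All 25 had a positive log2 fold change (median 1.39), and in 21 the groups did not overlap. The list comes from published work on other mice, and some of its members stand in the other lists below. Beside those above, the called members were Lpl, Ank, Ccl6, Cadm1, Gusb, Serpine2, Cd68, Ctsl and Cd52, and those that missed the call were Lilrb4a, Ctsz, Cd9, Ctsa, Cd63, Timp2 and Trem2. The number of called stage 2 members was 14 to 21 without 1 library, 20 without A- mice 223 and 245 together, and 12 when a change above 1.5-fold was required. It was 24 with the Wald test of DESeq2, 25 with the neuron marker score as a covariate and 23 with the oligodendrocyte score. In bulk RNA, a larger share of cells in this state and more RNA of these genes per cell cannot be told apart.

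The promoter windows of 5 called stage 2 genes (Itgax, Igf1, Cd68, Cst7 and Gpnmb) held the AP-1 motif, the site of JUN and FOS family factors, searched as TGANTCA (the motif reads the same on the opposite strand apart from its central base). RefSeq promoter windows (GRCm38.p6, 250 bases before to 50 after the transcript start) were found for 12365 of the 17350 gene symbols tested, and 634 of them (5.13%) held the motif. Of the 21 stage 2 genes with a window, 6 (28.6%) held it, as did 8 of 26 type I interferon genes (30.8%), 5 of 39 lysosomal genes (12.8%), none of 22 immediate early genes, 11 of 110 rises (10%) and 4 of 41 falls (9.76%). The 3 called stage 2 genes with the whole motif before the start are shown. The bases end at the transcript start, run 5′ to 3′ on the gene's strand and carry the motif in capitals: Itgax (chr7:128129450-128129549, plus strand), Igf1 (chr10:87861011-87861110, plus strand) and Cd68 (chr11:69666171-69666330, minus strand).
Itgax: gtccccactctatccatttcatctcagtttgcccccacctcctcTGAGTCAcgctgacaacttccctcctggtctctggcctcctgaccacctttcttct
Igf1: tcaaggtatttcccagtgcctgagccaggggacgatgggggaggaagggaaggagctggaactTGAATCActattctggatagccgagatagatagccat
Cd68: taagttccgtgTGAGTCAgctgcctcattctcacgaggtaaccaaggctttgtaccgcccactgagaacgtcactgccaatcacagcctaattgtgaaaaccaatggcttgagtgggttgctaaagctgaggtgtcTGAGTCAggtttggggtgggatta
The motif begins 56 bases before the start in Itgax and 37 in Igf1, and Cd68 has 2 copies, the first 149 bases before the start. A match of letters is a description of the window and no evidence of binding.

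DAM stage 1 and the TREM2 pathway gave fewer calls. Apoe, the main lipid carrier of the brain, was at 6769, 6743, 6904 and 8256 CPM in A+/Pwt/wt against 2369, 3214 and 4367 CPM in A-/Pwt/wt, with no overlap (log2 fold change 1.14 ± 0.19, adjusted p = 0.0111). The Apoe call was lost without A+ mouse 380, its highest library (adjusted p = 0.0656). Ctsb, the lysosomal protease cathepsin B, was at 3242, 4896, 4575 and 5356 CPM against 1315, 2282 and 2680 CPM (1.02 ± 0.21, adjusted p = 0.0348), and its call held in 2 of the 11 fits without 1 library. These were the 2 called of 7 stage 1 genes (median 0.88), and 4 were called without A- mouse 223 and none without A+ mouse 380. Tyrobp, the signalling adaptor of TREM2, was at 866 to 1253 CPM against 301 to 728 CPM and Ctsd, cathepsin D, at 5491 to 8752 CPM against 1715 to 4815 CPM. Both pairs of groups were separate, yet the tests gave 0.88 ± 0.21 (adjusted p = 0.0739) for Tyrobp and 0.92 ± 0.26 (adjusted p = 0.134) for Ctsd, of whose exonic bases 34.4% are shared with the overlapping gene Gm49369. Trem2 itself was at 1021, 1646, 1238 and 1485 CPM against 479, 883 and 1073 CPM, where mouse 331 fell within the A-/Pwt/wt range (0.66 ± 0.21, adjusted p = 0.202). Plcg2, at 143 to 203 CPM against 124 to 231 CPM, had a log2 fold change of 0.05 ± 0.17 (adjusted p = 0.992). None of the 26 TREM2 and PLCG2 signalling genes was called, and their median was -0.03; 1 was called higher without A- mouse 223 and 2 with the Wald test of DESeq2.

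Of the homeostatic genes, 1 was called. P2ry12 was at 783, 1488, 1243 and 1120 CPM in A+/Pwt/wt against 986, 1346 and 1431 CPM in A-/Pwt/wt (log2 fold change -0.14 ± 0.19, adjusted p = 0.937). Cx3cr1 was at 1751 to 3177 CPM against 1812 to 3287 CPM (-0.10 ± 0.21, adjusted p = 0.973). Tmem119 came closer to a difference, at 664, 836, 834 and 740 CPM against 749, 1180 and 1399 CPM, and overlapped only through A- mouse 223 at the low end (-0.56 ± 0.18, adjusted p = 0.218). Without that mouse its adjusted p was 0.0307. Crybb1, which encodes a beta crystallin found in microglia, was at 80.1, 116, 103 and 107 CPM against 100, 238 and 251 CPM (-1.09 ± 0.22, adjusted p = 0.0329), and was the 1 called of 23 homeostatic genes (median -0.13), beside 0.282% of all genes that fell. The 100 CPM of A- mouse 223 stood apart from the other 6 A-/Pwt/wt libraries at 215 to 251 CPM. The Crybb1 call held in 1 of the 11 fits without 1 library, and 0 to 3 homeostatic genes were called lower in those fits, 3 of them without A- mouse 223.

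Lysosomal genes rose in part. Of 46 lysosomal hydrolase and membrane protein genes, 7 rose and none fell (median 0.40), beside 1.01% and 0.282% of all genes, with Gpnmb, Gusb and Cd68 shared with the stage 2 list and Gla, Glb1, Ppt1 and Galc beside them. Gla, the alpha-galactosidase deficient in Fabry disease, was at 12.4, 15.4, 13.5 and 16.3 CPM against 5.28, 6.24 and 7.18 CPM (log2 fold change 1.21 ± 0.14, adjusted p = 0.000791). Glb1, a beta-galactosidase, was at 86.1, 132, 115 and 136 CPM against 31.9, 63.2 and 72.8 CPM (0.98 ± 0.20, adjusted p = 0.0319). Both genes were separate between the groups, and while Gla was called in every fit without 1 library, Glb1 was called in 4 of 11. Gusb, a beta-glucuronidase, rose by 1.16 ± 0.20 (adjusted p = 0.0116) and Cd68, a glycoprotein of the lysosomal membrane, by 1.08 ± 0.19 (adjusted p = 0.0151) on the log2 scale. Without 1 library, 2 to 10 of the 46 genes rose, and 1 fell without A- mouse 223. Among 17 subunits of the V-ATPase, the proton pump that acidifies lysosomes, 2 rose, and 1 or 2 did without 1 library. Atp6v0d2 was at 7.24, 8.05, 14.2 and 20.2 CPM against 0, 0.533 and 1.14 CPM (4.71 ± 0.67, adjusted p = 0.00337), whereas Atp6v1a stood at 101 CPM both in A+ mouse 331 and in A- mouse 223 (0.55 ± 0.11, adjusted p = 0.0365). Cst7, Ctse, Ctsl and Ctsb were the 4 called of 18 cathepsins and cystatins (median 0.41). Without 1 library 2 to 7 of them rose, the 7 without A- mouse 223, and 2 rose when a change above 1.5-fold was required. Cst3, cystatin C, overlapped at 10232 to 15250 CPM against 7741 to 18604 CPM.

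The E-box CACGTG, part of the CLEAR element through which TFEB family factors act on lysosomal genes, was found on either strand in 1198 of the 12365 windows (9.69%). It was found in 8 of 39 lysosomal genes with a window (20.5%), in 5 of 22 immediate early genes (22.7%) and in 10 of 110 rises (9.09%), the last a share close to that of all genes. Gla (chrX:134601006-134601245, minus strand) holds 2 copies, the first 227 bases before the start, and Glb1 (chr9:114400978-114401077, plus strand) holds 1 copy 48 bases before it. They are shown as the called lysosomal genes outside the stage 2 list with this motif in capitals.
Gla: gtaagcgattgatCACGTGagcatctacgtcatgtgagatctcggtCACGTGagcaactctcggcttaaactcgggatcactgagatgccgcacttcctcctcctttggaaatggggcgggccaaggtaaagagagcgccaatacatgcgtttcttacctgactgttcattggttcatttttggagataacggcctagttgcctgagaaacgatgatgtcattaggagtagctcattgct
Glb1: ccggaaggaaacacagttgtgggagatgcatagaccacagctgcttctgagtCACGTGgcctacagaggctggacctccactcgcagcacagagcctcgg

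Lipid genes were among the rises. Of 31 genes of lipoprotein and cholesterol handling, 7 rose and 1 fell (median 0.19), beside 1.01% and 0.282% of all genes. Without 1 library, 2 to 8 genes of this list rose and 0 or 1 fell. When a change above 1.5-fold was required, 3 rose and 0 fell. Lpl, lipoprotein lipase, was at 173, 269, 318 and 309 CPM against 18.6, 61.5 and 85.5 CPM (log2 fold change 2.21 ± 0.31, adjusted p = 0.00337). Ch25h, which makes 25-hydroxycholesterol, was at 11.4, 16.1, 22.4 and 26.8 CPM against 1.46, 3.40 and 4.92 CPM (2.56 ± 0.33, adjusted p = 0.00193). Fabp5, a fatty acid binding protein, was at 51.5, 54.7, 73.2 and 107 CPM against 8.18, 15.3 and 30.5 CPM (1.99 ± 0.34, adjusted p = 0.0123). The groups were separate in all 3, and Acaca, which encodes an acetyl-CoA carboxylase, rose by a smaller amount. Apoc4, an apolipoprotein gene next to Apoe, rose by 3.91 ± 0.69 (adjusted p = 0.0141) from a level of at most 0.127 CPM in A-/Pwt/wt to at most 1.40 CPM in A+/Pwt/wt. Cd36, a scavenger receptor for oxidised lipoproteins and fatty acids, went the other way, at 6.66, 6.03, 7.48 and 8.60 CPM against 9.47, 11.9 and 13.9 CPM (-0.78 ± 0.16, adjusted p = 0.0302). Of 22 cholesterol synthesis genes, Dhcr7, which catalyses a last step of the pathway, was the 1 called (0.62 ± 0.13, adjusted p = 0.0329). With 1 library left out, 0 to 2 were called, and 2 without A- mouse 223.

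**Figure D3:**
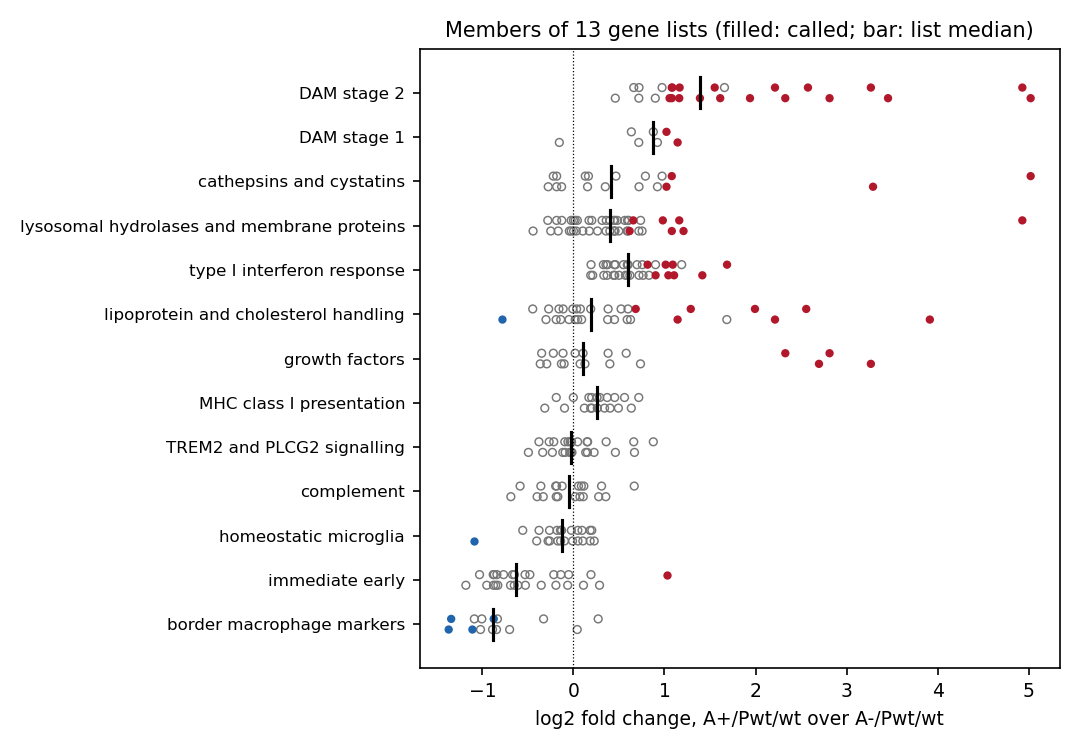
Log2 fold change of A+/Pwt/wt over A-/Pwt/wt (horizontal axis) for each tested member of 13 gene lists (rows); filled points are called genes (red higher, blue lower), open points genes not called, and the bar the median of the list. DAM stage 2 has the highest median (1.39) and all 25 members to the right of zero, as do the 34 interferon genes (median 0.60), while border macrophage markers have the lowest of the 13 lists drawn (-0.88).

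Part of the interferon response rose. All 34 genes of the type I interferon list had a positive log2 fold change (median 0.60), 15 were higher without overlap (2.02% of all genes were), and 8 rose (1.01% of all genes) while none fell: Ifi27l2a, Ifit2, Ifi204, Oasl2, Ifi207, Oas1a, Ifi44 and Ifit3. Ifi27l2a was at 70.2, 62.6, 49.7 and 40.0 CPM in A+/Pwt/wt against 10.05, 17.2 and 26.7 CPM in A-/Pwt/wt (log2 fold change 1.69 ± 0.25, adjusted p = 0.00544). Ifit2, one of the interferon-induced proteins that restrain viral RNA, was at 50.7, 64.5, 53.0 and 45.3 CPM against 13.7, 21.2 and 28.4 CPM (1.42 ± 0.18, adjusted p = 0.00171). Both were separate between the groups. Oas1a, a sensor of double-stranded RNA, rose by 1.01 ± 0.19 (adjusted p = 0.0187) and Ifit3 by 0.81 ± 0.18 (adjusted p = 0.0469). The abundant members Bst2 (96.4 to 137 against 49.6 to 109 CPM) and Ifitm3 (72.3 to 139 against 61.0 to 89.1 CPM) overlapped and were not called. Without 1 library 2 to 8 genes of the list rose, 5 rose when all 15 female libraries were fitted together, and 21 rose with the neuron marker score as a covariate.

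The interferon-stimulated response element, searched on both strands, stood in 397 of all 12365 windows (3.21%), in 15 of the 26 interferon genes with a window (57.7%) and in 7 of 110 rises (6.36%). Ifit3 (chr19:34583369-34583528, plus strand) holds 2 copies on the opposite strand, the first 156 bases before the start, and Oas1a (chr5:120907526-120907625, minus strand) holds 2 overlapping copies, the first 20 bases before it. They are shown as called genes of the list, with the motif in capitals.
Ifit3: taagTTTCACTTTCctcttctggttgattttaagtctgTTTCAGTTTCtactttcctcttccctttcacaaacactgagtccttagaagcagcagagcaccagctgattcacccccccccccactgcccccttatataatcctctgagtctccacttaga
Oas1a: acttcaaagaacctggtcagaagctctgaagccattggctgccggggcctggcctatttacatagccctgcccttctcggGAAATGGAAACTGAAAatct

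Antigen presentation, chemokine and receptor genes gave few calls. None of 20 genes of MHC class I presentation was called (median 0.26, 16 positive). B2m, the light chain of class I molecules, was at 2563, 3179, 2451 and 2485 CPM against 988, 1568 and 2240 CPM, separate between the groups yet not called (log2 fold change 0.72 ± 0.20, adjusted p = 0.144), and H2-D1 overlapped (0.49 ± 0.21, adjusted p = 0.44). Of 10 class II genes, H2-Ob, a subunit of the class II modulator DO, rose (0.98 ± 0.20, adjusted p = 0.029), while Cd74, the invariant chain, was at 638 to 991 CPM against 286 to 785 CPM and was not called (adjusted p = 0.384). With 1 library left out, 0 or 1 class II gene rose. Ccl6, a chemokine of the stage 2 list, was at 162, 362, 204 and 238 CPM against 39.3, 79.8 and 106 CPM (1.61 ± 0.25, adjusted p = 0.00626). Of the other 18 chemokines tested, Pf4 fell, and Ccl3, which attracts monocytes and T cells, was at 254 to 429 CPM against 89.0 to 272 CPM without a call (0.98 ± 0.26, adjusted p = 0.119). Lgals3bp, a secreted galectin-binding glycoprotein, was at 577, 846, 610 and 659 CPM against 167, 246 and 299 CPM (1.52 ± 0.18, adjusted p = 0.000839). It was one of 4 called of 26 Fc receptors and lectins, with Cd300lf, Clec7a and Siglecf (1.28 ± 0.26, adjusted p = 0.0297). Without A- mouse 223, 3 Fc receptors or lectins and 2 chemokines fell. Cd180, a relative of the endotoxin receptor, rose by 1.16 ± 0.24 (adjusted p = 0.0342) as the 1 called of 30 Toll-like and NOD-like receptor genes. With 1 library left out, 0 or 1 gene of that list rose. None of 25 cytokine, 20 complement, 15 purinergic, 21 TGF-beta and 19 iron genes was called, although 1 TGF-beta gene fell without A- mouse 223, and C1qa, a chain of the first complement component, was at 2928 to 4041 CPM against 1613 to 4070 CPM (0.11 ± 0.23, adjusted p = 0.973).

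Growth factor genes gave 4 rises of 19, Igf1, Spp1, Csf1 and Hbegf. The rises numbered 4 in each fit without 1 library and 3 when all 15 female libraries were fitted together. Hbegf encodes a ligand of the EGF receptor. It was at 87.7, 98.2, 48.0 and 45.4 CPM in A+/Pwt/wt against 8.34, 10.6 and 13.4 CPM in A-/Pwt/wt, with no overlap (log2 fold change 2.7 ± 0.22, adjusted p = 4.76e-05). In 4 A+/Pki/ki libraries, which share the tag b2, Hbegf ran from 4.11 to 136 CPM with a median of 8.53 CPM. Treml2, a receptor of the TREM family, rose by 1.23 ± 0.23 (adjusted p = 0.0187). With Apoe, Ctsb and the fall of Ms4a4a it made up the 4 called of 40 other genes at Alzheimer's disease risk loci. Without 1 library 1 to 3 of the 40 rose and 0 to 4 fell, the 4 without A- mouse 223. When a change above 1.5-fold was required, 0 were called. Capg, an actin capping protein, rose by 1.02 ± 0.22 (adjusted p = 0.047) and with Baiap2l2 made up the rises among 31 genes of motility and actin remodelling. Of these, none fell in the main fit and 5 fell without A- mouse 223. The rises in this list numbered 1 or 2 without 1 library, and 2 only without A- mouse 223. Cox6a2, a respiratory chain subunit better known from muscle, was at 17.6, 32.3, 23.8 and 26.0 CPM against 3.29, 6.62 and 9.12 CPM (2.08 ± 0.27, adjusted p = 0.00202), the 1 called of 95 nuclear-encoded subunits. The ribosomal protein gene Rps3a2, at 5.75 to 9.48 CPM against 1.71 to 3.93 CPM, was the 1 called of 88 (1.41 ± 0.26, adjusted p = 0.0187), and none of 13 genes of the mitochondrial DNA was called (1 rose without A- mouse 223). With 1 library left out, 0 or 1 ribosomal protein gene rose.

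Falls were smaller, and several were markers of other CD11b+ macrophages. Ccn1, a secreted matrix protein also known as Cyr61, was at 16.9, 13.6, 6.25 and 9.91 CPM in A+/Pwt/wt against 27.02, 32.3 and 37.8 CPM in A-/Pwt/wt (log2 fold change -1.47 ± 0.23, adjusted p = 0.00607). Cd209f and Cd209g, lectins of the DC-SIGN family, were at 6.67 to 9.52 CPM against 12.02 to 33.2 CPM (-1.37 ± 0.24, adjusted p = 0.0122) and at 2.12 to 3.44 CPM against 4.77 to 10.7 CPM (-1.34 ± 0.25, adjusted p = 0.0187). Cebpd, a transcription factor, was at 21.9, 20.7, 21.5 and 18.6 CPM against 24.7, 51.6 and 59.2 CPM (-1.24 ± 0.20, adjusted p = 0.00973), and Mycl, of the MYC family, fell by 1.18 ± 0.24 (adjusted p = 0.0291). Each of these was separate between the groups. Sema4b, a membrane semaphorin, was at 9.16, 10.3, 11.7 and 11.7 CPM against 19.2, 26.4 and 34.3 CPM (-1.26 ± 0.17, adjusted p = 0.00202) and was called in every fit without 1 library, as were Ccn1, Chst7, a sulfotransferase (-1.26 ± 0.21, adjusted p = 0.0084), and Ecscr, a regulator of cell surface signalling first described in endothelial cells (-1.17 ± 0.17, adjusted p = 0.00365). Ecscr was at 24.2 to 34.8 CPM in A+/Pwt/wt, 45.2 to 80.9 CPM in A-/Pwt/wt and 46.3 to 65.9 CPM in A+/Pki/ki. Gp9, a platelet glycoprotein subunit, and Kcnk12, a potassium channel, fell by 1.14 ± 0.19 (adjusted p = 0.0107) and 1.06 ± 0.21 (adjusted p = 0.029).

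**Figure D4:**
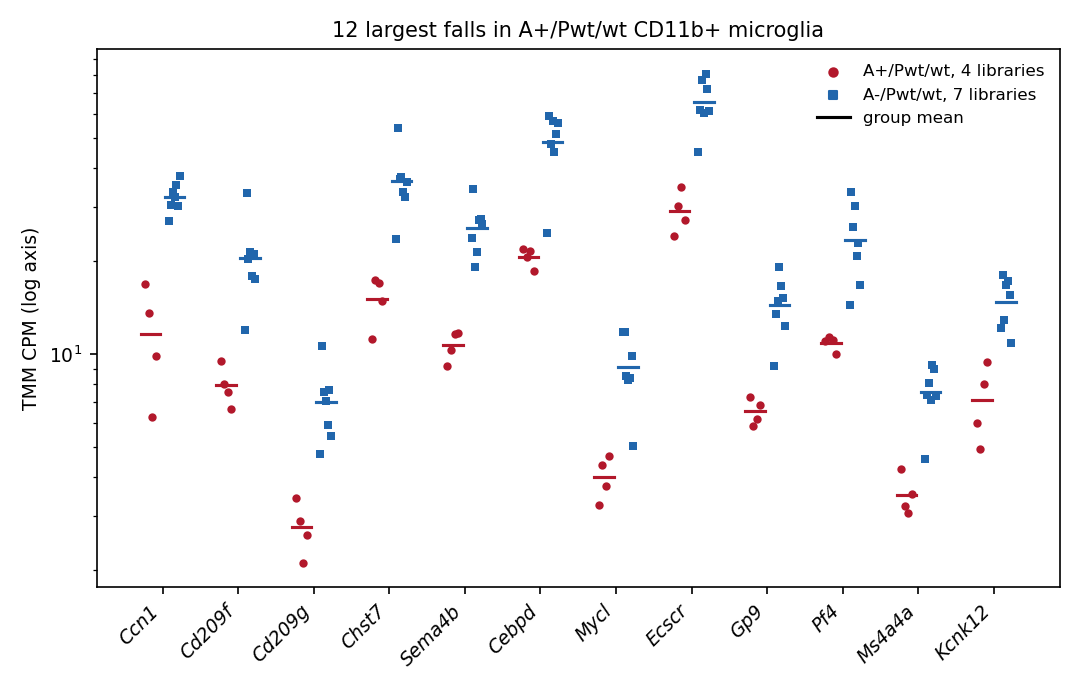
Level in every library of the 12 largest called falls averaging 5 or more CPM, without overlap and without a Gm, Rik or -ps symbol. The log axis shows TMM CPM. Red circles are the 4 A+/Pwt/wt libraries, blue squares the 7 A-/Pwt/wt libraries and bars the group means. The red points lie below the blue points in each gene, and the lowest blue point of Cebpd (24.7 CPM, A- mouse 223) lies close to the A+/Pwt/wt libraries.

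Perivascular and meningeal (border) macrophages also carry CD11b. Of 14 of their markers, 4 fell (Cd163, Pf4, Clec10a and Cd209f) and none rose, beside 0.282% of all genes that fell, and 12 had a negative log2 fold change (median -0.88). Their summed level was 919 to 1143 CPM in A+/Pwt/wt and 1118 to 2436 CPM in A-/Pwt/wt, where it overlapped through the lowest A- library. Mrc1, the mannose receptor that defines these cells, was at 82.0, 87.4, 85.3 and 90.0 CPM against 120, 152 and 311 CPM, separate yet not called (log2 fold change -1.02 ± 0.24, adjusted p = 0.0653). Pf4, platelet factor 4, was at 11.04, 11.4, 11.1 and 10.003 CPM against 14.5, 22.9 and 33.4 CPM (-1.11 ± 0.22, adjusted p = 0.027). Cd163, the scavenger receptor for haemoglobin, was at 34.0, 25.2, 26.2 and 36.0 CPM against 36.2, 62.3 and 71.5 CPM (-0.88 ± 0.19, adjusted p = 0.0485), and Ms4a4a fell by 1.10 ± 0.21 (adjusted p = 0.0227). The count of falling markers was 0 without A+ mouse 367, 375 or 380, 10 without A- mouse 223 and 9 without A- mice 223 and 245 together. Whether the share of these cells moved with the falls of Cd209f, Pf4 and Cd163 was not tested.

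Markers of cells without CD11b gave no call in the main edgeR fit. The astrocyte, neuron, endothelial and mural lists gave at most 1 each in other fits. None of the neuron (24), astrocyte (18), oligodendrocyte (14), OPC (10), endothelial (15), mural (12) or choroid plexus and ependymal (14) markers was called, and the summed levels of each list overlapped between the groups, for example 1152 to 2085 CPM against 499 to 5441 CPM for neuron markers. Gfap, the intermediate filament of reactive astrocytes, came nearest, at 309, 150, 201 and 109 CPM against 27.9, 77.2 and 107 CPM (log2 fold change 1.46 ± 0.34, adjusted p = 0.0605), with no overlap. An astrocyte marker was called higher without A- mouse 223, without A- mice 223 and 245 together, with all 15 female libraries, with either marker score as a covariate, without a filter and with the Wald test of DESeq2. A neuron marker was called higher with the oligodendrocyte score, and an endothelial and a mural marker were called lower without A+ mouse 331. Of blood cell markers, none of 13 monocyte, 16 neutrophil, 15 lymphocyte and 5 erythroid genes was called, although 1 monocyte and 1 lymphocyte gene fell without A- mouse 223. The neutrophil markers had a median of -1.11, with Mpo, a granule peroxidase, at 0.134 to 1.23 CPM against 0.595 to 18.8 CPM (-2.77 ± 1.00, adjusted p = 0.29). The T cell genes Cd3d, Cd3e, Cd3g and Cd2 were below the count minimum. The part of these cells in the called genes was not tested.

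In the main edgeR fit of all 11 libraries, no immediate early gene fell past the threshold and 1 rose. Yet 6 fell without A- mouse 223, 1 without A- mice 223 and 245 together and 8 with the Wald test of DESeq2. With the neuron marker score as a covariate 4 fell, and with the oligodendrocyte score 5. Of 28, which include stress and dissociation responsive genes, 24 had a negative log2 fold change (median -0.63). Jun was at 800, 1125, 945 and 945 CPM in A+/Pwt/wt against 1218, 1741 and 2778 CPM in A-/Pwt/wt, separate between the groups (-0.85 ± 0.24, adjusted p = 0.13), and Zfp36, which destabilises cytokine mRNAs, at 1012 to 1336 CPM against 1231 to 3004 CPM (-0.65 ± 0.25, adjusted p = 0.345). Rgs1, a regulator of G protein signalling, rose, at 47.7, 96.5, 71.9 and 66.2 CPM against 18.7, 38.1 and 42.4 CPM (1.03 ± 0.22, adjusted p = 0.0376). With 1 library left out, 0 or 1 gene of the list rose. The groups differed in the column tag as well, and whether a step of preparation moved these genes was not tested.

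The levels in other groups of the series were set beside these, without a test. In 3 transgene-free male libraries (tag b1), Cst7 was at 19.1 to 26.9 CPM, Itgax at 35.5 to 54.6 CPM, Baiap2l2 at 0.577 to 0.852 CPM and Apoe at 2124 to 2975 CPM, each within or near the A-/Pwt/wt range of females. In 4 female A+/Pki/ki libraries (tag b2), the same genes were at 558 to 933, 248 to 467, 31.4 to 76.6 and 6691 to 8909 CPM. Levels of these genes, picked from the rises, were low in both transgene-free groups, of different tags, and high in both A+ groups, of the same tag. Hbegf and Ecscr, given above, did not follow this pattern. In A+/Pki/ki the median of Hbegf and all levels of Ecscr lay within the A-/Pwt/wt range of females, for Ecscr by a small margin at the low end. The A+/Pki/ki and male levels came from a joint TMM scaling with A+/Pwt/wt and A-/Pwt/wt, whose own levels were scaled without them. Small margins between these levels are therefore uncertain. The pattern was not counted over all called genes.

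In the temporo-occipital cortex, 4 A+/Pwt/wt libraries could be set beside 1 A-/Pwt/wt library, which allows no test. Of the 164 microglial rises that were measured there, 99 (60.4%) were higher in all 4 A+/Pwt/wt libraries, against 20.1% of the 15821 genes measured in both tables, and 17 (10.4%) were lower in all 4. Of 47 falls, 18 (38.3%) were lower in all 4, against 23.7% of all genes, and 7 (14.9%) were higher. Of the 18 called stage 2 genes 16 were higher in all 4. Cst7 was at 34.7 to 56.5 CPM against 0.313 CPM, Clec7a at 14.4 to 25.1 CPM against 0.169 CPM, and Itgax at 11.3 to 31.6 CPM against 0.410 CPM. Homeostatic genes were higher as well in this tissue, 18 of 23 in all 4 libraries, such as P2ry12 at 49.2 to 69.9 CPM against 35.03 CPM. The part of the amount of microglial RNA in these levels was not tested. Border macrophage markers were divided, with 3 of 13 higher and 3 lower in all 4. Lgi2, Gla and Dhcr7 did not separate, Lgi2 for example at 74.1 to 99.1 CPM against 95.5 CPM.

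**Figure D5:**
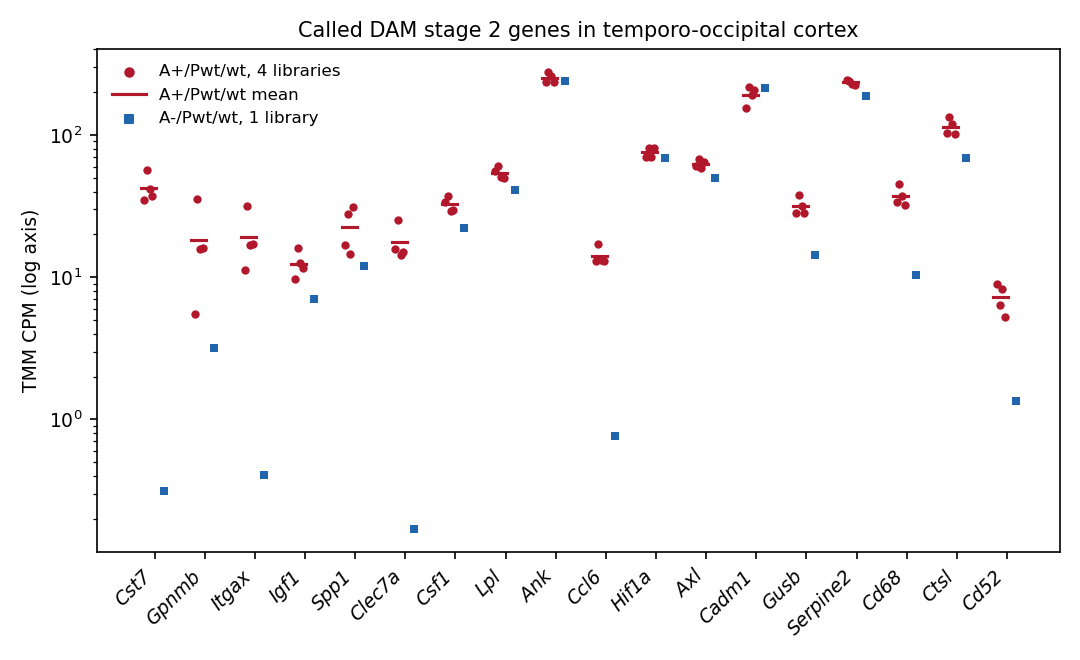
Level of the 18 stage 2 genes called in microglia in each cortex library (TMM CPM on a log axis); red circles are the 4 A+/Pwt/wt libraries with their mean as a bar, and the blue square is the 1 A-/Pwt/wt library. In 16 of the 18 genes all red points lie above the blue square, with the widest gaps in Cst7, Itgax, Clec7a and Ccl6.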

How the data were processed

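Counts were deposited by the authors as raw counts per gene, made per the study's methods from 150-base paired-end reads of oligo(dT)-selected RNA with FastQC 0.11.7, Trimmomatic 0.39, STAR 2.7.9a (Gencode M25, GRCm38) and featureCounts, counting unstranded, uniquely mapped primary alignments; without strand, a gene and its antisense partner cannot be told apart, and near-identical copies lose reads. The authors' log2-like variance-stabilized values, deposited beside the counts, served 1 alternative, and those of the other tables were not used.

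Counts of the 4 A+/Pwt/wt and 7 A-/Pwt/wt female libraries, each from a separate mouse per the labels, were fitted with edgeR 4.0.16 in R 4.3.3 (TMM scaling, glmQLFit and glmQLFTest, two-sided, a minimum of 10 counts in 3 or more libraries per gene, Benjamini-Hochberg adjustment over all genes tested, threshold 0.05). Log2 fold changes are A+/Pwt/wt over A-/Pwt/wt, and the SE is the absolute log2 fold change over the square root of F. No cell type was assigned from values. Library measures were compared by exact permutation. DESeq2 1.42.0 and limma 3.58.1 served as alternatives, with other scaling, filters, covariates and each library left out. The code was tested on simulated data. Coordinates are from a Gencode annotation of GRCm38.

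The comparison and the gene lists were chosen with earlier results of these data known. Named genes are a fixed set, the 12 largest called rises and falls with 5 or more CPM on average, no overlap and no Gm, Rik or -ps symbol (8 of 156 eligible genes were passed over), the 2 most abundant and the most changed called members of each list, and the 5 smallest adjusted p of genes averaging 50 CPM or more; other genes given with values were chosen after their values were seen. Some genes that these rules name are not reported here. Depth sets the precision of genes below a few CPM.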

Additional observations from a re-analysis of the deposited data

Results flagged for a closer look

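Dixon's criterion was applied to 200 groups of 4 or 7 libraries, and 18 held a library apart from the others; chance gives about 1 in 20 groups. A- mouse 223 accounted for 9 of these: it was the highest of the A-/Pwt/wt libraries in summed neuron marker level (5441 CPM), App (962 CPM), Lgi2 (14.9 CPM) and Atp6v1a (101 CPM), and the lowest in Crybb1 (100 CPM), Gusb (103 CPM), Ctsd (1715 CPM), Ctsb (1315 CPM) and Cebpd (24.7 CPM). A- mouse 224 was the highest in Mrc1 (311 CPM), Hpse (7.09 CPM) and Gpnmb (23.1 CPM). In A+/Pwt/wt, mouse 331 was the lowest in Cd68 (422 CPM) and Atp6v1a (101 CPM) and the highest in Bst2 (137 CPM), mouse 367 the highest in B2m (3179 CPM), mouse 380 the highest in Apoe (8256 CPM) and mouse 375 the lowest in genes with at least 10 counts (16088). Of the 12 falls in A+/Pwt/wt microglia that were plotted, 11 were measured in cortex and 2 went the other way there. The 1 A-/Pwt/wt cortex library was below all 4 A+/Pwt/wt libraries in Cebpd (4.19 against 4.67 to 9.98 CPM) and Chst7 (2.29 against 2.80 to 3.62 CPM). This difference between tissues was not tested.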

How the results depend on the processing

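The 224 called genes (175 rises, 49 falls) became 636 (371 and 265) with the Wald test of DESeq2, 701 (481 and 220) with the neuron marker score as a covariate, 757 (496 and 261) with the oligodendrocyte score, 481 (240 and 241) without A- mice 223 and 245 together, and 73 (69 and 4) with a 1.5-fold minimum; 78 genes fell when all 15 female libraries were fitted. The last covariate and the pair of mice were chosen after seeing the data. Without 1 library, called genes ranged from 91 to 497, rises from 77 to 243 and falls from 11 to 254. Other scaling, other filters, limma and the removal of the 50 most counted genes left all 3 counts within 1.5 times. The 9 genes between transgene-free females and males became 18 without a filter, 1593 with DESeq2, and 1 to 22 without 1 library. List medians moved by more than the spread between libraries in 8 pairs of a list and a fit and by less in 960. They changed sign in 83 such pairs. The median of lipoprotein handling was 0.19 in the main fit and 0.29 without a filter. That of purinergic receptors was -0.14 in the main fit, -0.23 with 15 libraries and -0.26 to -0.13 without 1 library. Neither changed sign in these fits. That of erythroid markers was -1.17 in the main fit, 1.42 with DESeq2 and -1.86 to 1.52 without 1 library. Among 155 genes with values here, calls were lost in 223 pairs of a gene and a fit and gained in 76. No called gene changed direction, while genes that were not called changed sign in 101 such pairs. The causes were not tested. No paired analysis was possible because the groups compared share no mouse number. Errors and p-values rest on the variation between these mice, pooled in part across genes. Genotype and tag remain the same split under every alternative.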

Other observations

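Of called genes outside the lists, 4 are given here that were chosen after their values were seen. Pdcd1, which encodes the inhibitory receptor PD-1, was at 15.3, 32.9, 28.8 and 35.5 CPM in A+/Pwt/wt mice 331, 367, 375 and 380 against 2.92, 6.62 and 10.03 CPM (lowest, median and highest) in A-/Pwt/wt, and Cd274, which encodes its ligand PD-L1, was at 25.0, 37.7, 28.7 and 31.1 CPM against 8.92, 15.4 and 20.8 CPM. The groups were separate in both (log2 fold change 2.06 ± 0.33, adjusted p = 0.0084 for Pdcd1 and 1.07 ± 0.22, adjusted p = 0.0309 for Cd274). The urokinase gene Plau (1.40 ± 0.27, adjusted p = 0.0211) and its receptor gene Plaur (1.05 ± 0.23, adjusted p = 0.0453) both rose, with A+ mouse 331 inside the A-/Pwt/wt range in each. Of 38 cell cycle genes, 31 had a positive log2 fold change (median 0.36) and none was called, while 6 were called higher with the Wald test of DESeq2 and 2 with either marker score as a covariate.

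A larger share of pseudogenes than of protein coding genes was called higher, without a test of the difference. Of 668 pseudogenes tested 23 rose (3.44%) and none fell, against 144 rises (0.983%) and 46 falls (0.314%) among 14642 protein coding genes. Some were present in some A+ mice and near absent in others of the same group. Rps2-ps10 was at 183, 1.08, 1.34 and 146 CPM in A+/Pwt/wt mice 331, 367, 375 and 380 against at most 1.12 CPM in A-/Pwt/wt. Gm15772, a processed pseudogene at chr5:3236431-3236868, was at 167, 5.55, 120 and 121 CPM against at most 4.07 CPM, and Gm15459, another at chr5:5781615-5783555, at 81.0, 5.77, 115 and 111 CPM against at most 6.27 CPM. In the 4 A+/Pki/ki libraries Rps2-ps10 ran from 0.714 to 219 CPM and Gm15772 from 4.15 to 233 CPM, and in the 3 transgene-free males neither exceeded 1.57 CPM. Of all chromosomes, chromosome 5 had the highest share of called genes (29 of 1144, 2.53%). Reads shared with near-identical copies make the levels of such genes uncertain.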
